A study of Mus musculus with 18 samples.

Results

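Enzymes that write, erase or replace chemical marks on histones and DNA were followed through the response of cultured sensory neurons to axotomy. The group was drawn by gene name: the protein-coding genes of the histone deacetylase (Hdac), lysine demethylase (Kdm), lysine acetyltransferase (Kat), lysine methyltransferase (Kmt), SET domain (Setd), sirtuin (Sirt1 to Sirt7), Tet, Dnmt and Ezh families, without Hdac1, Hdac2 and Kdm1a. This gave 67 of the 47643 genes counted in each library. RNA came from spot cultures of dorsal root ganglia (eDRG spots) of CD-1 mouse embryos at E13.5, all grown with nerve growth factor and with the mitotic inhibitor FDU. The 3 control libraries were from uninjured cultures at DIV7. In the other 15 libraries the axons had been cut with a blade, and the time of collection in hours post injury (HPI) names the groups: 1 HPI, 3 HPI, 8 HPI, 16 HPI and 24 HPI, each with 3 libraries. By the study's methods the axons were cut at DIV7, so the injured cultures were older than the controls by up to 24 hours and no uninjured culture of that age was analysed here. Injury and time in culture cannot be told apart in any comparison with control. The labels name no transgene or clone, and each library held the RNA of all cell types of the spots.

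Lysine methyltransferases of the COMPASS family methylate lysine 4 of histone H3 (H3K4) at promoters and enhancers, while Ezh1 and Ezh2, the catalytic subunits of Polycomb repressive complex 2, methylate lysine 27 (H3K27), a mark of silenced genes. Acetyltransferases add and deacetylases remove acetyl groups from histone tails, and acetylation goes with open chromatin. Dnmt1 copies and Dnmt3a places methyl groups on cytosines of DNA, and the Tet dioxygenases oxidise them. In sensory neurons these enzymes are studied for the way the cell body switches its gene programme after its axon is cut.

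The libraries held 9478891 to 23082327 counts on genes, so 3 counts, taken as the limit of detection, stood at 0.316 CPM or below (CPM being the count scaled to the library's total on genes). Neither the labels nor the methods say that replicates came from separate cultures or litters, so the p-values measure the spread between these libraries, which may be technical. Libraries with the same replicate number resembled each other across time points, and the replicate number was therefore a batch term in the test. In 28 of the 64 tested enzymes replicate 3 had the highest CPM in all 6 groups, and in 19 with the TMM library sizes that the test uses. The share of all tested genes with that order is not given here. Values and overlaps below are in CPM, and of 320 pairs of enzyme and time 24 differed in overlap on TMM sizes. This is said where the overlap of an enzyme at that time is described, and not for every pair. The share of counts on the ribosomal RNA genes listed, mitochondrial ones included, ran from 13.8% to 24.1%, and it was highest in replicate 1 at 16 HPI. The share on all mitochondrially encoded genes ran from 14.9% (replicate 3 of 8 HPI) to 24.1% (replicate 1 of 24 HPI). In replicate 1 of 16 HPI it was 22.4%. How much these shares overlap is not given here. Of the markers, the 6 for sensory neurons summed to 4790 to 5320 CPM in control and to 4100 to 4420 CPM at 16 HPI, a difference that lay mostly in Tubb3 (mean 2930 and 2250 CPM), while Pou4f1 stood at 280 and 284 CPM. The 7 for dividing cells summed to 27.1 to 31.7 CPM in control and to 32.1 to 41 CPM at 16 HPI, mostly from Pcna and Mcm2. In whole cultures fewer cells of a type and less RNA per cell cannot be told apart.

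Nearly the whole enzyme repertoire was present before injury. In the control libraries 58 of the 67 enzymes had a mean RPKM (the CPM divided by the exon length in kilobases) over 1. The exon length was that of the merged exons of all transcripts of a gene. The order of enzymes and the count over 1 can differ with another length, such as that of the longest transcript. On this per-length scale the actin histidine methyltransferase Setd3 was the most abundant, with a mean RPKM of 25.4 ± 1.53 (SD, n = 3). The H3K9 and H3K36 demethylases Kdm4a and Kdm4b followed at an RPKM of 21.1 ± 2.13 and 20.3 ± 2.32, which do not differ beyond their spread. Hdac3, the deacetylase of the NCoR corepressor complex, had an RPKM of 16.9 ± 1.15. Among the DNA methyltransferases Dnmt3a stood at an RPKM of 11.9 ± 0.46, while Dnmt3b was found with at most 5 counts in any library and Dnmt3l, which has no catalytic activity of its own, with at most 8. Dnmt3c had 0 counts in all 18 libraries. These 3 were too low to test. Ezh2 stood at an RPKM of 0.303, and Hdac9, the lowest enzyme tested, at 0.0913.

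**Figure D1:**
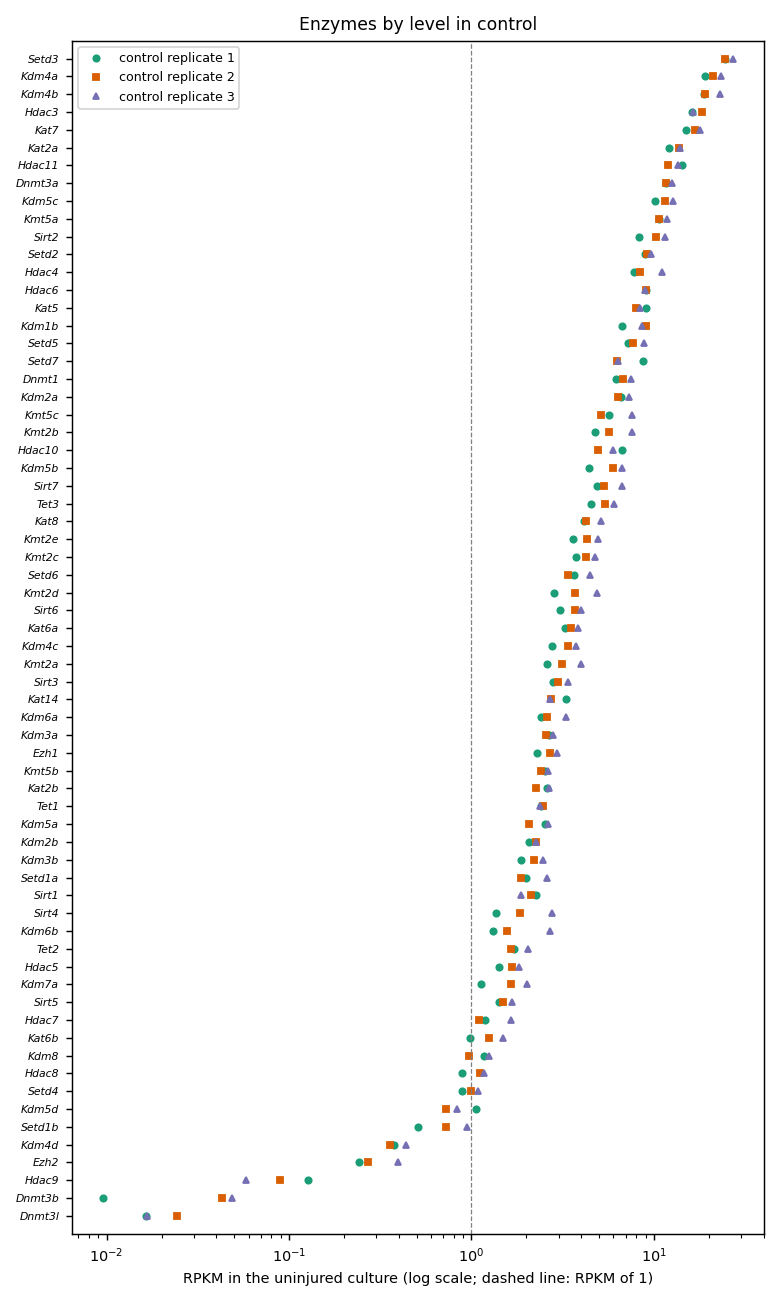
Level of the enzymes in the 3 uninjured control libraries, as RPKM on a log axis, with 1 point per library and a dashed line at an RPKM of 1. Setd3, Kdm4a and Kdm4b lead, Dnmt3b and Dnmt3l close the list, and Dnmt3c, at 0 counts, cannot be drawn.

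Differences from control were small, and none passed before 8 HPI. At 1 HPI 0 of the 64 tested enzymes had an adjusted p under 0.05 (edgeR's quasi-likelihood test, Benjamini-Hochberg over all 13771 tested genes), against 0.276% of all tested genes, and 11 had an unadjusted p under 0.05. At 3 HPI the count was again 0, against 0.189% of all genes, with 14 at an unadjusted p under 0.05. DESeq2 called 0 and 2 enzymes at these times. The shares of all tested genes at an unadjusted p under 0.05 are not given here. The counts of 11 and 14 can therefore not be read as particular to the enzymes. At 8 HPI 8 enzymes passed, 12.5% against 7.68% of all tested genes, with 3 higher (3.78% of all genes were higher) and 5 lower (3.9%). At 16 HPI 18 passed, 28.1% against 22.2%, with 9 higher (10.7%) and 9 lower (11.5%). At 24 HPI 11 passed, 17.2% against 15%, with 1 higher (5.99%) and 10 lower (9.03%). The shares at 16 and 24 HPI thus lay near those of all genes.

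No enzyme changed more than 2-fold at any time point (0 of 64 at each), where 0.029% of all tested genes did so at 1 and 3 HPI. The share of all genes over 2-fold was 0.537% for 8 HPI, 1.49% for 16 HPI and 0.821% for 24 HPI. The log2 fold changes of the 64 enzymes ran from -0.42 to 0.68 at 16 HPI, with a median of -0.004 against -0.002 over all tested genes. A test of any change over the time course called 29 enzymes, 45.3% against 30% of all genes. Of these 29, 16 lay farthest from control at 16 HPI, 8 above it and 8 below. Another 5 lay farthest at 3 HPI, all lower (Kmt2a, Tet2, Tet3, Kdm5b and Setd2), 4 at 8 HPI and 4 at 24 HPI. All these comparisons share the same 3 control libraries. How all genes called over the time course divide by time and direction is not given here. The division can therefore not be read as particular to the enzymes. The calls depended on single libraries: without replicate 1 of 16 HPI, the library with the highest ribosomal RNA share, 11 enzymes passed at 16 HPI and 18 over the time course. At 8 HPI 2 passed without control replicate 2, 2 without control replicate 3, 3 without replicate 1 of 8 HPI and 3 without its replicate 3. At 24 HPI 7 passed without control replicate 2, 6 without control replicate 3, 6 without replicate 1 of 24 HPI and 4 without its replicate 3. With upper-quartile scaling the split was 2 higher and 6 lower at 8 HPI, and 2 higher and 8 lower at 24 HPI.

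**Figure D2:**
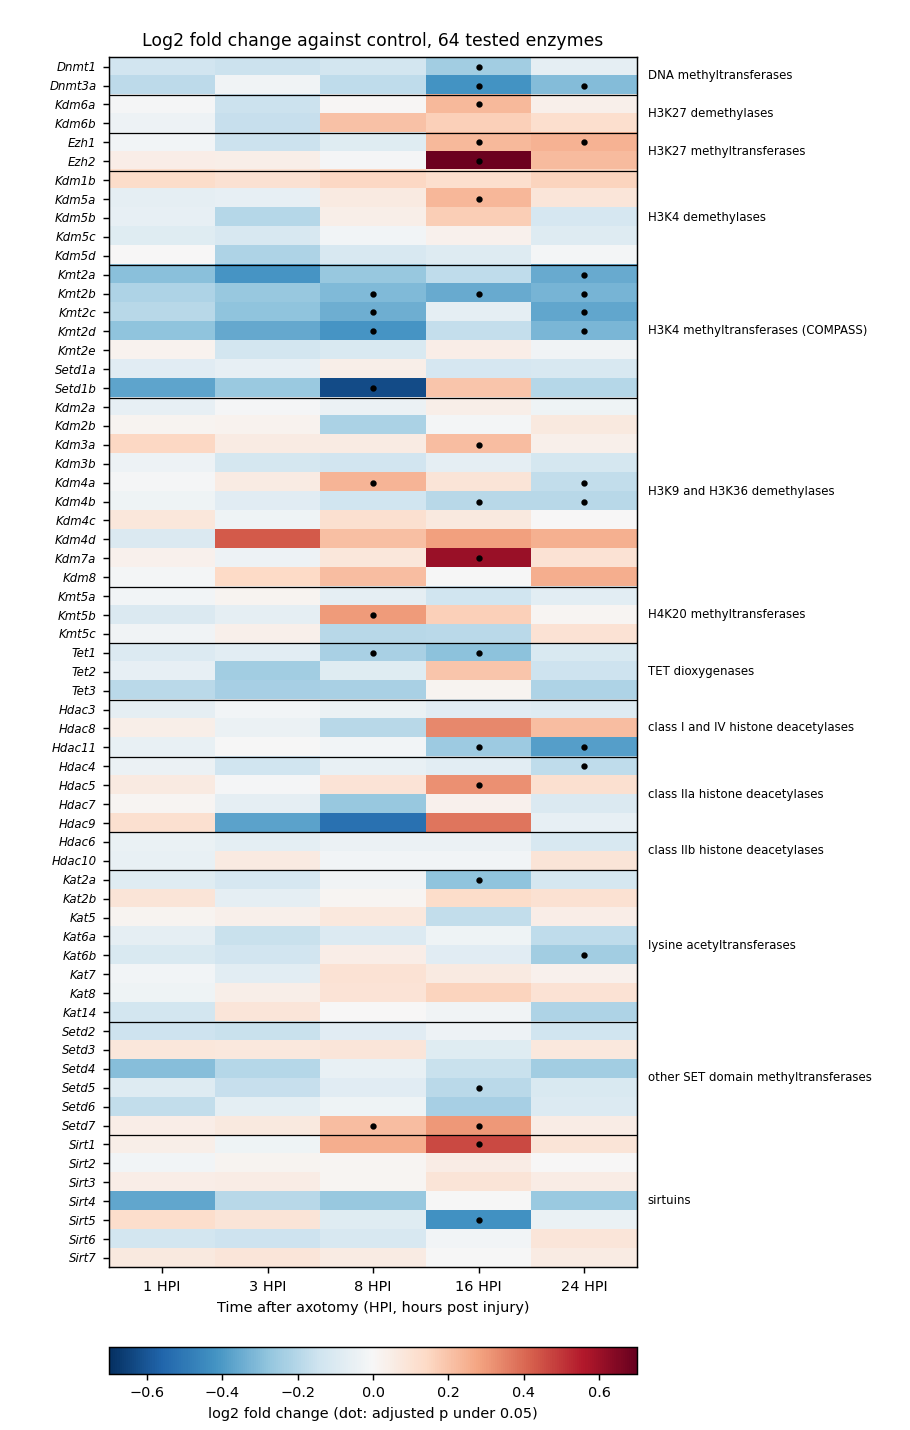
Log2 fold change against control of the 64 tested enzymes, grouped by the reaction they catalyse, at 5 times after axotomy, with a dot where the adjusted p was under 0.05. More dots lie at 16 HPI than at any other of the 5 times, and there 9 enzymes were higher and 9 lower. The H3K4 methyltransferases of the COMPASS family were all below 0 at 3 and at 24 HPI.

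The H3K4 methyltransferases of the COMPASS family were the group with the most members lower at 8 and at 24 HPI. Of its 7 enzymes 4 fell at 8 HPI and 4 at 24 HPI, with 1 lower at 16 HPI, and none rose. Of all tested genes 3.9%, 9.03% and 11.5% were lower at 8, 24 and 16 HPI. All 4 calls at 8 HPI were lost without control replicate 2, and all 4 without control replicate 3. The median log2 difference of the 7 at the 5 times, in order, was -0.22, -0.27, -0.31, -0.12 and -0.32, where the medians over all tested genes lay between -0.002 and 0.002. Kmt2a (MLL1), Kmt2b (MLL2), Kmt2c (MLL3) and Kmt2d (MLL4) lay below control at all 5 time points, as did 20 of the 64 enzymes, all against the same controls. The share of all tested genes that did so is not given here, so the count cannot be read as particular to the enzymes. Kmt2b was the one enzyme of all 64 called at 3 time points. Outside the group drawn by name, the acetyltransferases Crebbp, Ep300 and Ncoa1 were also called lower at 8 HPI (-0.22, -0.28 and -0.26) and at 24 HPI (-0.28, -0.305 and -0.25). They belong to a further list described below, of which 5 genes were lower and 1 higher at 8 HPI, and 7 and 1 at 24 HPI. Of the other acetyltransferases on that list, Ncoa3 was also lower at 24 HPI (-0.27). Hat1 and Naa40 lay above control then (0.41 and 0.20), and neither passed. Of the COMPASS partners on the list, Men1 was lower at 8 HPI (-0.22). Dpy30, Wdr5, Ash2l and Rbbp5 lay between -0.01 and 0.04 at 8 HPI, and none passed.

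The promoters of Kmt2a, Kmt2c and Kmt2d are shown because these genes moved together, those of Kdm4a, Ezh2 and Sirt1 because they changed at other times or in the other direction. Each window runs from 250 bases before to 50 bases after the RefSeq start of the gene (GRCm38.p6), and 55 of the 67 enzymes were matched to one by symbol. For genes with several starts the most upstream was used. Capitals mark the letters searched on both strands: TGACTCA or TGAGTCA (AP-1), TGACGTCA (CRE), CCAAT (NF-Y) and GGGCGG (SP1), none of which can lie inside another although the ends of neighbouring matches can overlap. All 6 genes lie on the minus strand, at chr9:44881240-44881539, chr5:25498734-25499033, chr15:98871156-98871455, chr4:118179994-118180293, chr6:47594981-47595280 and chr10:63338986-63339285 in this order.
Kmt2a: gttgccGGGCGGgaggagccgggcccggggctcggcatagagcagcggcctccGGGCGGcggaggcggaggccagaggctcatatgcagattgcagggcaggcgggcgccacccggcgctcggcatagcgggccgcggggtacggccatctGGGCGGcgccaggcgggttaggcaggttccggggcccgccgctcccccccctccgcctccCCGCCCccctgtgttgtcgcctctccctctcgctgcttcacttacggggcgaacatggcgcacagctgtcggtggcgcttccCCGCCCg
Kmt2c: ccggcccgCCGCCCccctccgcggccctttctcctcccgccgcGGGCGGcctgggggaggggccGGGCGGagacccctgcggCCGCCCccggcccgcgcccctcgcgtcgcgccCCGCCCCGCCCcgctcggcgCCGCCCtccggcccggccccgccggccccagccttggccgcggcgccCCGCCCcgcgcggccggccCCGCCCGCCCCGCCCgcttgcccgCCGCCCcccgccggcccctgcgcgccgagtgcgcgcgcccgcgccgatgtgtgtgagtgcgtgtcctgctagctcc
Kmt2d: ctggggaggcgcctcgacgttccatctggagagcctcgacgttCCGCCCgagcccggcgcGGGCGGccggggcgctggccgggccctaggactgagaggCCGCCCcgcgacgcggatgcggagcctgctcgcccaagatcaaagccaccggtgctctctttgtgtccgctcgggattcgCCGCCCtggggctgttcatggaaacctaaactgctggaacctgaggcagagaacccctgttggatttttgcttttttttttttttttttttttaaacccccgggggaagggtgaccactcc
Kdm4a: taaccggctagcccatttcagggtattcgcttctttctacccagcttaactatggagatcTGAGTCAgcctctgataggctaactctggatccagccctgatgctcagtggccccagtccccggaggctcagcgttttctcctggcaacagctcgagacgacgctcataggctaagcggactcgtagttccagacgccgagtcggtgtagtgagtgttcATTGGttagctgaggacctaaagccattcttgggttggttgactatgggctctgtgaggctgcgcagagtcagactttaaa
Ezh2: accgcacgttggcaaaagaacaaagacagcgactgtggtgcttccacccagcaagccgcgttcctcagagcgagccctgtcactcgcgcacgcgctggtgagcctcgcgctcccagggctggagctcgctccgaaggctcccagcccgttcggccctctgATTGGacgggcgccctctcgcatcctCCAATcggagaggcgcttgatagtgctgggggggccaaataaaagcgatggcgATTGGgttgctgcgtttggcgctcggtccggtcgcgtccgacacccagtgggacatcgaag
Sirt1: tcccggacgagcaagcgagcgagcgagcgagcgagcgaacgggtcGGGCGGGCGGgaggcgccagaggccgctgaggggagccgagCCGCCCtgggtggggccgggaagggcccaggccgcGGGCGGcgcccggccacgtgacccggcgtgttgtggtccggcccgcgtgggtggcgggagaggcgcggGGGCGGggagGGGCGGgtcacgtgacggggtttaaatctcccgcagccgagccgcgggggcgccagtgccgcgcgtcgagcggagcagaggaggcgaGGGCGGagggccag

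The windows of Kmt2a, Kmt2c and Kmt2d held 5, 12 and 4 SP1 matches and none of the other letters, and that of Sirt1 held 7. Kdm4a held the AP-1 letters once and the NF-Y letters once, and Ezh2 held the NF-Y letters 3 times. Over the 55 enzymes, 33 windows (60.0%) had SP1 letters against 35.66% of 32851 windows of all genes, 23 (41.8%) had NF-Y letters against 37.41%, 3 (5.5%) had AP-1 letters against 5.2% and 0 had CRE letters against 1.79%. The enzymes were counted once each, at the most upstream start, while the 32851 windows hold every listed start of 27025 genes. The paired shares are therefore not like for like. A match describes letters and not binding.

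Kmt2d, which methylates H3K4 at enhancers, was counted at 56.5, 73.6 and 97.7 CPM in the 3 control libraries, at 46.1, 57.9 and 65.6 CPM at 8 HPI and at 45.9, 62.5 and 74 CPM at 24 HPI. The groups overlapped, but each replicate was below the control of the same number. Kmt2d fell by 0.41 on the log2 scale at 8 HPI (SE 0.0937, adjusted p = 0.01, edgeR) and by 0.32 at 24 HPI (SE 0.0911, adjusted p = 0.0205). Kmt2c, its closest relative, was counted at 76.3, 85.9 and 97.1 CPM in control, at 60.2, 70.4 and 73.7 CPM at 8 HPI, at 80.1, 81.3 and 89.6 CPM at 16 HPI and at 62.7, 67.6 and 72 CPM at 24 HPI. The 8 and 24 HPI libraries lay wholly below control, and those of 16 HPI overlapped with it. On TMM sizes the 3 HPI libraries also lay below control, at 73.2, 63.2 and 77.6 against 79.2, 87.2 and 93.6. Kmt2c fell by 0.34 at 8 HPI (SE 0.0826, adjusted p = 0.0142) and by 0.36 at 24 HPI (SE 0.081, adjusted p = 0.00402).

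Kmt2b was counted at 45.7, 54.4 and 73.2 CPM in control, at 33.2, 45.6 and 62 CPM at 8 HPI, at 34.5, 44.3 and 60.3 CPM at 16 HPI and at 33.2, 52.6 and 53.1 CPM at 24 HPI. The spread between replicates was wider than the shift, and every injured replicate was below its own control. Its log2 difference was -0.31 at 8 HPI (SE 0.0789, adjusted p = 0.0195, edgeR), -0.35 at 16 HPI (SE 0.0781, adjusted p = 0.00229) and -0.33 at 24 HPI (SE 0.0771, adjusted p = 0.00655). Kmt2a, the mixed lineage leukaemia methyltransferase, was counted at 43.6, 52.3 and 66 CPM in control, 38.6, 35.5 and 47.7 CPM at 3 HPI and 33.9, 45.8 and 47.2 CPM at 24 HPI. It fell by 0.35 at 24 HPI (SE 0.0911, adjusted p = 0.0116), and its log2 difference of -0.41 at 3 HPI missed the threshold (adjusted p = 0.0582, and 0.00759 in DESeq2).

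Setd1b, the catalytic subunit of a COMPASS complex, was counted at 6.17, 8.8 and 11.4 CPM in control, 4.1, 5.59 and 7.33 CPM at 8 HPI and 10.1, 8.77 and 11.4 CPM at 16 HPI. It fell by 0.63 at 8 HPI (SE 0.169, adjusted p = 0.0265, edgeR) and was 0.82 higher on the log2 scale at 16 than at 8 HPI (SE 0.168, adjusted p = 0.00214), with no overlap between those 2 groups. Setd1a, of whose exon bases 52.3% lie on another gene, and Kmt2e, which is not an active methyltransferase, passed at no time. The 95% interval of their log2 difference at 24 HPI ran from -0.34 to 0.12 and from -0.15 to 0.1.

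Several of these calls rested on single libraries. At 8 HPI the Kmt2d difference was -0.37 without control replicate 2, -0.38 without control replicate 3 and -0.33 without its own replicate 3, each with an adjusted p over 0.05 (edgeR), the highest 0.104. The Kmt2c difference at 8 HPI was -0.30 and -0.34 without these controls and -0.32 and -0.31 without replicates 1 and 3 of 8 HPI (adjusted p 0.0554 to 0.095). Kmt2b at 8 HPI lost its call without any 1 of the 3 controls or without replicate 1 of 8 HPI (-0.32 to -0.25), and at 24 HPI without replicate 3 of that time (-0.24, adjusted p = 0.0716). Setd1b lost its call without control replicate 2 or 3, or without replicate 1 or 3 of 8 HPI (-0.67 to -0.56). Kmt2a and Kmt2d at 24 HPI lost theirs without control replicate 2 or 3, or without replicate 1 or 3 of 24 HPI, at -0.33 to -0.30 and -0.30 to -0.27. These are long genes, Kmt2d with 19931 bases of exon and 58.4% GC against a median of 6755 bases and 52% over the enzymes. With offsets for GC content and length, the difference at 24 HPI was -0.14 for Kmt2d (adjusted p = 0.19) and -0.20 for Kmt2a (adjusted p = 0.0732), and at 8 HPI it was -0.51 for Setd1b (adjusted p = 0.0514) and -0.22 for Kmt2b (adjusted p = 0.0535). With these offsets Kmt2c at 24 HPI (-0.19) and Kmt2d at 8 HPI (-0.26) kept their calls with differences over 1.5 times smaller.

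**Figure D3:**
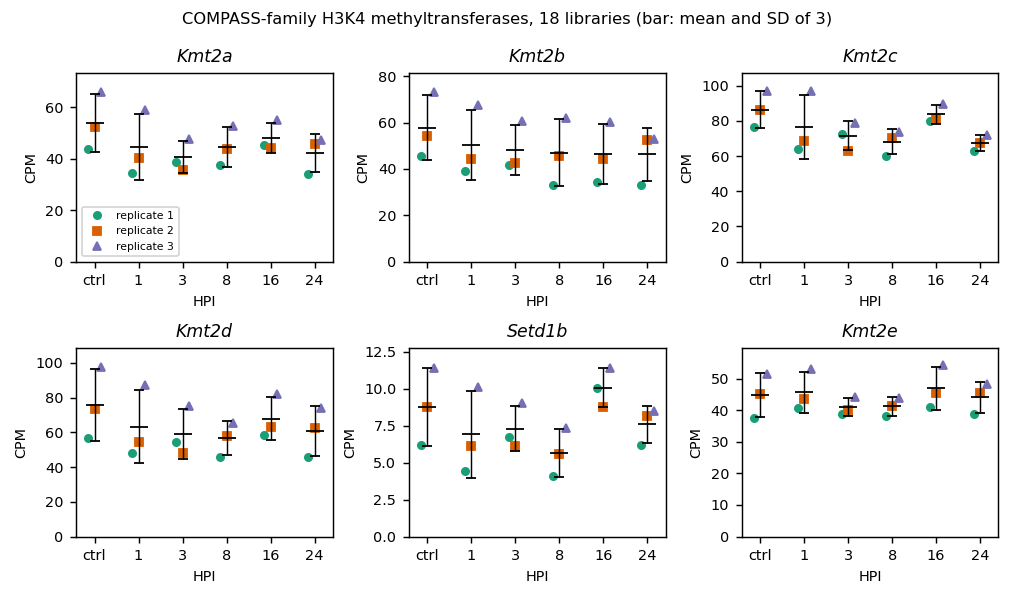
CPM of 6 COMPASS-family methyltransferases in all 18 libraries, with points marked by replicate number and bars for the mean and SD of 3. For Kmt2c the 8 and 24 HPI libraries lie below all control libraries, while for Kmt2b and Kmt2d the groups overlap and replicate 3 is highest in each group.

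Demethylases take the same mark off. Of the 5 that act on H3K4, 0 fell against control at any time. Of all tested genes 3.9%, 11.5% and 9.03% were lower at 8, 16 and 24 HPI, so 0 of 5 is near their share. Kdm5a rose at 16 HPI by 0.23 on the log2 scale (10.7% of all genes were higher then). Kdm5b, of the same family, was called over the time course. It lay farthest from control at 3 HPI (-0.20, lower in 3 of 3 batches) and was 0.17 above control at 16 HPI (neither of which passed), and 0.29 below its 16 HPI level at 24 HPI (log2 difference -0.29, adjusted p = 0.00446, edgeR). Whether writers and erasers differed was not tested.

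Some enzymes were raised at 16 HPI and came back toward control by 24 HPI. Kdm7a, a demethylase of H3K9 and H3K27 (chr6:39136623-39206789, minus strand, GRCm38), was counted at 11.4, 16.6 and 20.2 CPM in control, 22.2, 22.2 and 29 CPM at 16 HPI and 13.7, 19.1 and 18.4 CPM at 24 HPI. All 16 HPI libraries lay above all controls and all 24 HPI libraries. Kdm7a rose by 0.60 at 16 HPI (SE 0.105, adjusted p = 0.000252, edgeR) and was 0.50 lower at 24 than at 16 HPI (log2 difference -0.50, SE 0.103, adjusted p = 0.00304). Sirt1, an NAD-dependent deacetylase, was counted at 12, 11.3 and 9.99 CPM in control, 13.3, 12.5 and 13.6 CPM at 8 HPI, 15.1, 15.8 and 15.3 CPM at 16 HPI and 12, 11.5 and 12 CPM at 24 HPI. Its libraries at 8 and at 16 HPI lay above all controls, and those at 24 HPI again reached the control range. The rise of 0.46 at 16 HPI passed (SE 0.0839, adjusted p = 0.000388), and the difference of 0.26 at 8 HPI did not (adjusted p = 0.0777).

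Setd7, a monomethyltransferase of H3K4 and of other proteins, was counted at 94.8, 68.2 and 68.9 CPM in control, 95.9, 78.6 and 91.5 CPM at 8 HPI and 104, 91.4 and 93.5 CPM at 16 HPI. Replicate 1 was the highest in all 3 groups, and the groups overlapped. Setd7 rose by 0.22 at 8 HPI (SE 0.0645, adjusted p = 0.0409, edgeR) and by 0.31 at 16 HPI (SE 0.0637, adjusted p = 0.00134). The 8 HPI call was lost without control replicate 2 (0.20), control replicate 3 (0.18) or replicate 3 of 8 HPI (0.13, adjusted p = 0.316), the last a difference over 1.5 times smaller, and also with upper-quartile scaling. Sirt5, a mitochondrial sirtuin that removes acyl groups, went the other way. It was counted at 8.57, 9.09 and 10.1 CPM in control, 5.78, 6.77 and 8.44 CPM at 16 HPI and 9.12, 8.23 and 9.69 CPM at 24 HPI. The 16 HPI libraries were all below control. Sirt5 fell by 0.42 at 16 HPI (SE 0.107, adjusted p = 0.00644) and was 0.38 higher at 24 than at 16 HPI (SE 0.106, adjusted p = 0.0263). Without replicate 1 of 16 HPI its difference from control was -0.35 (adjusted p = 0.0503).

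Both catalytic subunits of Polycomb repressive complex 2 rose at 16 HPI. Ezh2 was counted at 1.62, 1.82 and 2.65 CPM in control, 3.05, 2.82 and 4.1 CPM at 16 HPI and 2.08, 1.99 and 3.1 CPM at 24 HPI. The 16 HPI libraries lay above all controls, at a low level. Ezh2 rose by 0.68 at 16 HPI (SE 0.196, adjusted p = 0.0147, edgeR), the largest difference of any enzyme at that time, and its difference was -0.01 to 0.05 at 1, 3 and 8 HPI. All 7 markers of dividing cells, in which Ezh2 is abundant, were detected in each group. Their sum was 27.1 to 31.7 CPM in control, 32.7 to 38.5 CPM at 1 HPI, 32.1 to 41 CPM at 16 HPI and 36.5 to 37.8 CPM at 24 HPI. Most of it was Pcna (mean 17.3 CPM in control and 21.3 at 16 HPI) and Mcm2 (9.47 and 11.3). Mki67, Top2a, Ccnb1, Cdk1 and Birc5 had means of 0.534 to 1.01 CPM in control and 0.431 to 1.17 at 16 HPI. Mki67 and Top2a were highest at 24 HPI (1.64 and 1.51 CPM). The part of these markers in the result was not tested. Without control replicate 1 the Ezh2 difference was 0.65 (adjusted p = 0.0521), and without replicate 1 of 16 HPI it was 0.56 (adjusted p = 0.0808).

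Ezh1, the subunit found in cells that no longer divide, was counted at 17, 19.9 and 21.8 CPM in control, 20.9, 22.7 and 26.2 CPM at 16 HPI and 21.3, 23.3 and 25.1 CPM at 24 HPI. The groups overlapped, but on TMM sizes both injured groups lay above all controls. Ezh1 rose by 0.23 at 16 HPI (SE 0.0703, adjusted p = 0.0221, edgeR) and by 0.24 at 24 HPI (SE 0.069, adjusted p = 0.0203), the one enzyme higher at 24 HPI. At 16 HPI the call was lost without control replicate 1 (0.18, adjusted p = 0.128), replicate 1 of 16 HPI (0.21) or its replicate 3 (0.23), at 24 HPI without control replicate 1 (0.19, adjusted p = 0.109) or replicates 1 and 3 of 24 HPI in turn (both 0.24), and at both times in DESeq2 (adjusted p = 0.0742 and 0.0596). Of the H3K27 demethylases, Kdm6a rose by 0.23 at 16 HPI (SE 0.0754, adjusted p = 0.0341). Kdm6b (JMJD3) was counted at 9.11, 10.8 and 18.6 CPM in control and 8.72, 15.1 and 21.4 CPM at 8 HPI, with wide overlap. Its log2 differences at the 5 times were -0.03, -0.16, 0.21, 0.17 and 0.12, none of which passed, and the 95% interval at 8 HPI ran from -0.06 to 0.47.

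**Figure D4:**
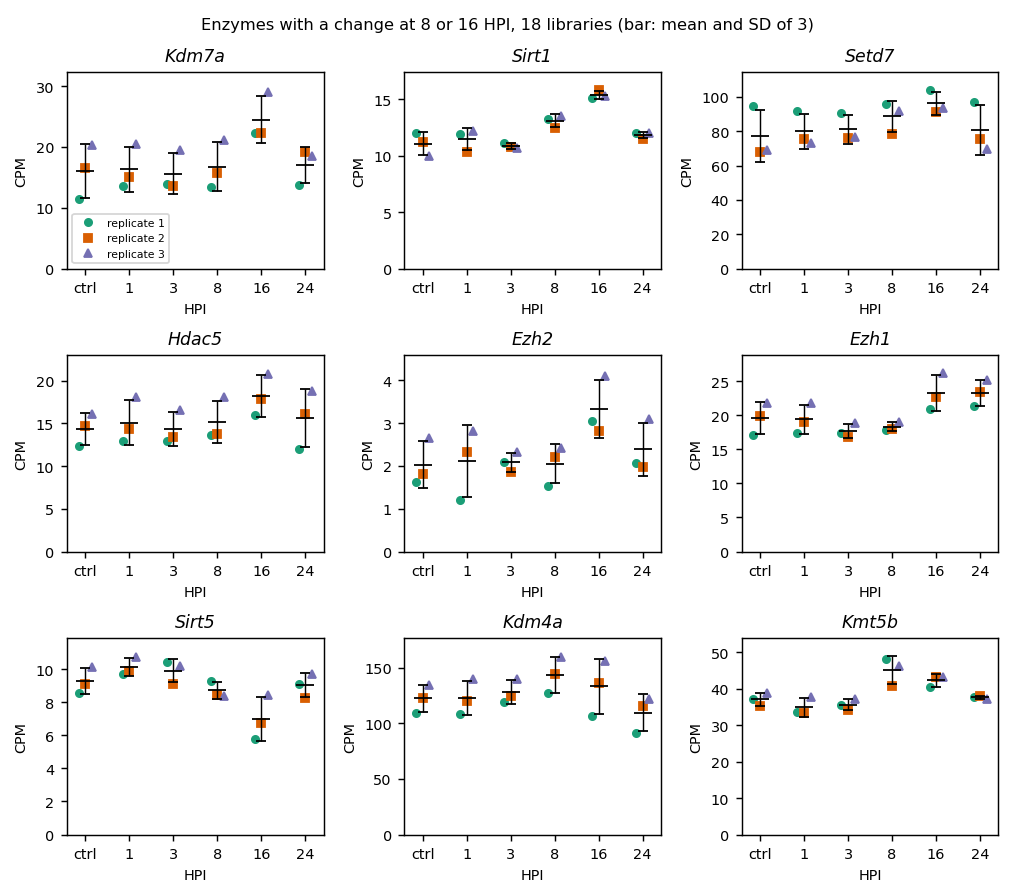
CPM of 9 enzymes called at 8 or 16 HPI in all 18 libraries, with points marked by replicate number and bars for the mean and SD of 3. Kdm7a, Sirt1 and Ezh2 at 16 HPI lie above all controls and Sirt5 below them, while Setd7, Hdac5, Ezh1 and Kdm4a overlap with control on this scale (on TMM sizes Setd7 still does, and Hdac5 and Ezh1 at 16 HPI and Kdm4a at 8 HPI do not).

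Of the 3 enzymes called higher at 8 HPI, Kdm4a and Kmt5b lay farthest from control at that time. Kdm4a was counted at 109.6, 122.8 and 134 CPM in control, 127, 145 and 159 CPM at 8 HPI and 90.8, 115 and 122 CPM at 24 HPI. The groups overlapped, but each replicate was above the control of its number at 8 HPI and below it at 24 HPI. On TMM sizes the 8 HPI libraries lay above all controls. Kdm4a was higher by 0.24 at 8 HPI (SE 0.0424, adjusted p = 0.00145, edgeR) and lower at 24 HPI (log2 difference -0.17, SE 0.0423, adjusted p = 0.00762). The 24 HPI difference was -0.15 without replicate 1 of that time (adjusted p = 0.0502). Its relative Kdm4b was lower at both 16 and 24 HPI, by a log2 difference of -0.20 each. Kmt5b, which methylates lysine 20 of histone H4, was counted at 37.2, 35.3 and 39 CPM in control, 48.3, 40.8 and 46.4 CPM at 8 HPI and 40.4, 43.4 and 43.4 CPM at 16 HPI. Both injured groups lay above all controls. Kmt5b rose by 0.30 at 8 HPI (SE 0.0639, adjusted p = 0.00688), and without replicate 1 of 8 HPI the difference was 0.23 (adjusted p = 0.0705). Its difference of 0.17 at 16 HPI did not pass (adjusted p = 0.0621, edgeR). The test of 16 against 8 HPI called no H4K20 methyltransferase, so a fall of Kmt5b between these times was not shown.

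Among the deacetylases, Hdac11 fell and Hdac5 rose. Hdac11, the class IV enzyme (chr6:91156665-91174692, plus strand), which removes long acyl chains, was counted at 54.8, 45.9 and 51.8 CPM in control, 38.2, 45.1 and 46.8 CPM at 16 HPI and 36.9, 39.8 and 41.1 CPM at 24 HPI. The 24 HPI libraries lay below all controls and 16 HPI overlapped with them, but on TMM sizes all 16 HPI libraries lay below control too (41.8, 43.4 and 43.1 against 56.9, 46.5 and 50). Hdac11 fell by 0.25 at 16 HPI (SE 0.0656, adjusted p = 0.00724, edgeR) and by 0.38 at 24 HPI (SE 0.0652, adjusted p = 0.000449). The 16 HPI difference was -0.20 without control replicate 1 and -0.19 without replicate 1 of 16 HPI (adjusted p = 0.0636 and 0.068). Other genes overlap 17.9% of its exon bases. The sum of the 6 sensory neuron markers went from 4790 to 5320 CPM in control to 4110 to 4430 CPM at 24 HPI, with Tubb3 lower (2930 and 2280 CPM) and Pou4f1 and Isl1 higher (280 and 326 CPM, 76.6 and 92.3 CPM), and the part of these markers in the result was not tested.

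Hdac5, a class IIa deacetylase that shuttles between nucleus and cytoplasm and is studied for axon injury, was counted at 12.4, 14.7 and 16.1 CPM in control and 16, 17.9 and 20.9 CPM at 16 HPI. The groups overlapped, with each replicate above its control, and on TMM sizes all 16 HPI libraries lay above control. Hdac5 rose by 0.32 at 16 HPI (SE 0.0805, adjusted p = 0.00597, edgeR). At 1, 3, 8 and 24 HPI its log2 difference was 0.06, -0.01, 0.10 and 0.11, none of which passed. Hdac4, of the same class, was lower at 24 HPI (log2 difference -0.18, SE 0.0553, adjusted p = 0.035), and other genes share 22.4% of its exon bases. Hdac8 at 16 HPI was at 0.34 against control (adjusted p = 0.052) and at 0.53 against 8 HPI (adjusted p = 0.00761).

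Hdac3 was counted at 65.7, 74 and 66.2 CPM in control, 59.7, 69.7 and 68.5 CPM at 16 HPI and 61.5, 69.7 and 63.7 CPM at 24 HPI. The groups overlapped. Its log2 differences at the 5 times were -0.06, -0.02, -0.05, -0.08 and -0.09, none of which passed, and the 95% intervals at 16 and 24 HPI, -0.18 to 0.02 and -0.18 to 0.01, leave out a change of 2-fold. Kat2b (PCAF), an acetyltransferase studied for axon injury, was counted at 12.7, 11.1 and 12.9 CPM in control and 12.4, 12.6 and 15.9 CPM at 16 HPI. Its log2 differences were 0.09, -0.06, 0.02, 0.13 and 0.11, none of which passed (95% interval at 16 HPI -0.09 to 0.35). Kat2a (GCN5), its paralogue, fell at 16 HPI (log2 difference -0.28, SE 0.0603, adjusted p = 0.0016, edgeR), from 42.1, 48.2 and 48.4 CPM to 32.6, 38.7 and 44.8 CPM, groups that overlapped in CPM and not on TMM sizes. Of the 8 acetyltransferases 1 other, Kat6b, fell, at 24 HPI by 0.24.

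Both DNA methyltransferases that could be tested fell at 16 HPI. Dnmt3a, the de novo enzyme (chr12:3806007-3914443, plus strand, GRCm38), was counted at 194, 194 and 207 CPM in control, 133, 165 and 155 CPM at 16 HPI and 146, 164 and 177 CPM at 24 HPI. All 16 and 24 HPI libraries lay below all controls. So did those of 1 HPI (180.4, 168.5 and 178.5 CPM) and of 8 HPI (174.9, 167.7 and 180.8 CPM), while 3 HPI overlapped. Dnmt3a fell by 0.42 at 16 HPI (SE 0.0577, adjusted p = 2.27e-05, edgeR) and by 0.30 at 24 HPI (SE 0.0573, adjusted p = 0.00117). At 1, 3 and 8 HPI its difference was -0.18, -0.02 and -0.18, none of which passed. With GC and length offsets the 24 HPI difference was -0.15 (adjusted p = 0.0987). Dnmt1, the maintenance methyltransferase, was counted at 45.7, 49.9 and 55.1 CPM in control and 37.2, 43.8 and 48.8 CPM at 16 HPI. The groups overlapped, with each replicate below its control, and on TMM sizes all 16 HPI libraries lay below control. Dnmt1 fell by 0.24 at 16 HPI (SE 0.0549, adjusted p = 0.00278), and its log2 differences at 1, 3, 8 and 24 HPI were -0.14, -0.15, -0.13 and -0.06, none of which passed.

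Of the dioxygenases that oxidise methylcytosine, Tet1 was counted at 37, 38.4 and 36.7 CPM in control, 32.8, 32.8 and 30 CPM at 8 HPI and 29.2, 31.6 and 32.4 CPM at 16 HPI. Both groups lay below all controls. Tet1 was lower at 8 HPI (log2 difference -0.22, SE 0.0643, adjusted p = 0.0349, edgeR) and at 16 HPI (-0.28, SE 0.0636, adjusted p = 0.00235), and its difference was -0.09, -0.07 and -0.11 at 1, 3 and 24 HPI, none of which passed. The 8 HPI call was kept in 5 of the 15 alternatives, and without control replicate 2 or 3 or any 1 of the 8 HPI replicates the difference was -0.24 to -0.20. Tet2 was counted at 28.7, 27.8 and 34.7 CPM in control, 31.6, 33 and 42.1 CPM at 16 HPI and 23.5, 28.9 and 30.7 CPM at 24 HPI. Its differences from control were -0.06, -0.24, -0.08, 0.20 and -0.15, none of which passed (adjusted p = 0.0502 at 16 HPI), and it was lower at 24 than at 16 HPI by a log2 difference of -0.34 (SE 0.0701, adjusted p = 0.0031). Tet3 was counted at 75.5, 89.6 and 101 CPM in control and 86.7, 81.6 and 104 CPM at 16 HPI, and its differences of -0.19, -0.23, -0.23, 0.02 and -0.22 did not pass. All 3 Tet genes were called by the test of any change over the time course, with Tet2 and Tet3 farthest from control at 3 HPI.

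**Figure D5:**
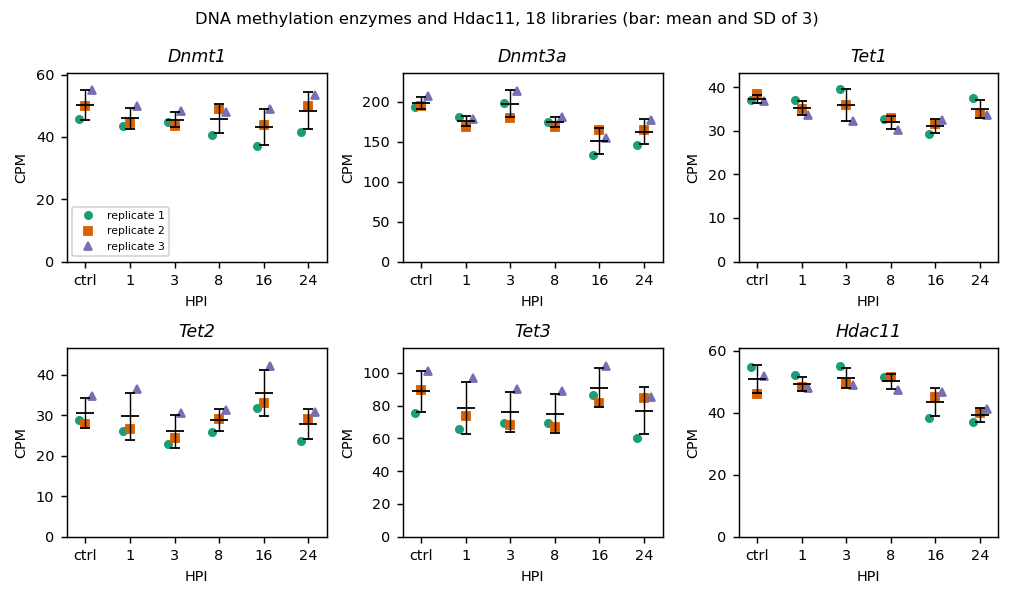
CPM of Dnmt1, Dnmt3a, Tet1, Tet2, Tet3 and Hdac11 in all 18 libraries, with points marked by replicate number and bars for the mean and SD of 3. Dnmt3a at 1, 8, 16 and 24 HPI, Tet1 at 8 and 16 HPI and Hdac11 at 24 HPI lie below all control libraries.

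Enzymes also differed between successive late times. From 8 to 16 HPI 16 of the 64 passed, 25% against 15.2% of all tested genes, with 9 higher (7.3% of all genes) and 7 lower (7.86%), or 15 higher and 3 lower with upper-quartile scaling. The rises included Setd1b, Kdm7a, Ezh2, Ezh1, Hdac8, Kmt2c, Tet2 and the scarce class IIa deacetylase Hdac9 (0.90 on the log2 scale, adjusted p = 0.0236, edgeR). From 16 to 24 HPI 12 passed, 18.8% against 9.82% of all tested genes, with 5 higher (3.59%) and 7 lower (6.22%), or 8 higher and 6 lower with GC and length offsets. Without replicate 1 of 16 HPI these counts were 6 and 4. The first was 8, 10 and 7 without replicates 1, 2 and 3 of 8 HPI, and the second 5 without replicate 3 of 24 HPI.

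Over the whole set 38 of the 64 tested enzymes passed at no single time point, a count given without the share of all tested genes. They included 5 of the 7 sirtuins, both class IIb deacetylases, Hdac6 and Hdac10, the H3K4 demethylases Kdm5c and Kdm5d, and the H3K36 methyltransferase Setd2. Setd2 was called over the time course. On TMM sizes its libraries lay below all controls at each time, and in CPM at 3 and 24 HPI only. Called at 16 HPI and not described above were the H3K9 demethylase Kdm3a, which rose by 0.22, and Setd5, which fell by 0.19. The other genes of the same pathways, a list of 61 partners and enzymes with other names of which 59 were tested, gave 0 calls at 1 HPI and 1 at 3 HPI, the acetyltransferase Crebbp (-0.31, adjusted p = 0.0468, edgeR). There were 1 higher and 5 lower for 8 HPI (10.2% against 7.68% of all genes), 8 and 6 for 16 HPI (23.7% against 22.2%) and 1 and 7 for 24 HPI (13.6% against 15%), none over 2-fold. The largest at 16 HPI were the demethylase relative Jmjd1c (0.60) and the hydroxylase Riox1 (0.48) among those higher, and the arginine methyltransferase Prmt8 (-0.57) and the corepressor Ncor1 (-0.31) among those lower.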

How the data were processed

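18 libraries of RNA from eDRG spots, 3 per group, were sequenced after ribosomal RNA depletion. The deposited values are raw counts per gene, which the authors made by trimming, aligning to mm10 with STAR and counting on genes. The methods name featureCounts and the submitters' processing notes name HTSeq. The counts carry no normalization or batch correction. The 5 closing entries for reads on no gene, 25.2% to 33.2% of counts, were left out. Names, positions and exon lengths came from GENCODE vM21 on GRCm38, which matched 47224 of 47643 identifiers. Counting was not stated to use strand, so a gene and an overlapping gene cannot be told apart.

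A gene was kept if at least 3 libraries held it over 1 CPM, and the kept genes were fitted in R 4.3.3 with edgeR 4.0.16 (TMM, quasi-likelihood, terms for time point and replicate number), with two-sided tests and Benjamini-Hochberg adjustment over all 13771 genes at 0.05. The steps were tested on simulated data. CPM values use each library's total on genes without the TMM factor, while the tests and their 95% intervals use TMM library sizes. The replicate number was kept as a block because the methods describe a batch correction, and because same-numbered libraries deviated together (mean r 0.619 over 45 pairs, lowest 0.484). Deviations were taken from the mean of each group of 3. The mean r of -0.308 over 90 pairs of different number follows from that and is no further evidence. Alternatives were other scalings, DESeq2 1.42.0, other count filters, GC and length offsets, the 2 groups alone, no block, and leaving out each library. Full statistics went to up to 3 enzymes per direction and time that passed and moved alike in all 3 batches, and to Hdac3, Hdac5, Kat2b, Dnmt1, Dnmt3a, Dnmt3b, Tet1, Tet2, Tet3, Ezh2 and Kdm6b whatever they did. Other enzymes named were chosen with their values seen. The enzymes and lists were chosen with earlier results of these data known. Promoter windows came from RefSeq, and figures were drawn with matplotlib 3.10.9.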

Additional observations from a re-analysis of the deposited data

Results flagged for a closer look

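For 12 enzymes the response at 24 HPI differed from that at 16 HPI, by edgeR's test of the difference itself with Benjamini-Hochberg adjustment. On the log2 scale the difference of 24 minus 16 HPI was below 0 for Kdm7a (-0.50, adjusted p = 0.00304), Sirt1 (-0.37, 0.00563), Tet2 (-0.34, 0.0031), Kmt2c (-0.30, 0.0211), Kdm5b (-0.29, 0.00446), Kdm4a (-0.26, 0.000346) and Setd7 (-0.25, 0.0131). It was above 0 for Sirt5 (0.38, 0.0263), Kmt5c (0.29, 0.0387), Kat5 (0.22, 0.0347), Dnmt1 (0.18, 0.0436) and Setd3 (0.16, 0.0432). Without replicate 1 of 16 HPI 4 enzymes passed and without replicate 3 of 24 HPI 5 did. Groups of 3 were not searched for single libraries far from the others.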

How the results depend on the processing

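The number of enzymes called rested most on the replicate block. Without the block the test against control called 0 enzymes for 8 HPI, 4 for 16 HPI and 2 for 24 HPI, and the other tests 0 from 8 to 16 HPI, 0 from 16 to 24 HPI and 5 over the time course. Of the 28 calls of named enzymes against control 5 were kept without it, those of Dnmt3a at 16 and 24 HPI, Hdac11 at 24 HPI, and Sirt1 and Sirt5 at 16 HPI, and 3 were kept in all 15 alternatives, Dnmt3a and Sirt1 at 16 HPI and Hdac11 at 24 HPI. With GC and length offsets 5 were called at 8 HPI and 6 at 24 HPI. With the 2 groups alone 5 were called at 1 HPI, all lower. At 3 HPI DESeq2 called 2, and a minimum of 10 counts and leaving out mitochondrial and ribosomal RNA genes called 1 each. Leaving out 1 library at a time gave 0 to 2 at 3 HPI (1 without control replicate 1 and 2 without replicate 1 of 3 HPI), 2 to 7 at 8 HPI, 11 to 17 at 16 HPI, 4 to 12 at 24 HPI, 6 to 14 from 8 to 16 HPI, 4 to 11 from 16 to 24 HPI and 18 to 29 over the time course. No named enzyme turned its direction while called. Enzymes under the count filter could not be tested at this depth.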
